A study of Mus musculus with 4 samples.

Results

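The genes described here are 37 genes known from astrocytes, measured in 4 RNA-seq libraries of mouse microglia cultures. They were chosen by symbol, and each of the 37 symbols named 1 of the 51826 gene models of the count table. Of the 37, 36 passed the filter on low counts and were tested among 19057 genes. Gpc5 did not pass, with 13, 9, 6 and 2 counts in mock replicates 1 and 2 and LysoPS replicates 1 and 2. The cultures were started from brains of newborn C57BL/6 mice without meninges, grown for 2 weeks, and microglia were then shaken off and collected. All 4 samples carry a code beginning with WT, and no genotype is spelled out in the labels. The mock group (2 libraries, labelled untreated) was compared with a group given lysophosphatidylserine (LysoPS), a lipid that activates the microglial receptor GPR34, for 4 h (2 libraries); no dose was given in the sources used here. The treatment note speaks of 1 treated replicate, while 2 libraries carry the LysoPS label. The labels do not say if the replicates of a group came from different animals or cultures, and p-values then measure only the spread between these samples, which may be technical.

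Astrocytes are the glial cells that buffer ions and water, clear glutamate from synapses, feed neurons and wrap vessels with endfeet. They hold a scaffold of intermediate filaments, of which GFAP is the best known, and are joined by gap junctions. When challenged by inflammatory signals from microglia they become reactive and change their transcripts. A mixed glial culture grows on a layer of astrocytes, from which microglia are shaken off, so that astrocyte transcripts in such a preparation are a familiar finding.

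Libraries held between 30001098 and 45193959 counts. Levels of different genes are compared on the deposited TPM (transcript abundance scaled by length and depth). Differences between groups are given on CPM (counts scaled by the TMM-adjusted library size), with log2 fold changes of LysoPS against mock from edgeR's quasi-likelihood test. That test gives no standard error (SE). The SE printed is the absolute log2 fold change divided by the square root of the test's F statistic, and the 95% intervals use it. Adjusted p-values are by Benjamini-Hochberg over all 19057 genes, and a gene is said to have fallen or risen only at an adjusted p under 0.05.

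After LysoPS the astrocyte genes were lower as a group. Of the 36 tested, 28 fell and none rose, against 12.6% lower and 12.8% higher among all tested genes (25.5% in either direction). Over all genes 2447 were higher and 2407 lower, a split that was 1353 and 3088 with limma on log2(TPM + 1) and 1821 and 3226 with library totals in place of TMM; no astrocyte gene rose in either. All 36 log2 fold changes were below 0, against 51.1% of all tested genes. Their median was -0.74, against -0.01 over all genes, and 10.5% of all genes lay at or below it. In 35 of the 36 both LysoPS libraries were below both mock libraries, against 34.5% of all genes; the exception was Dio2. The fall was uneven. Aldoc, Slc6a11, Gjb6 and Id4 stood at 34.2% to 39.4% of their mock level, and Vim and Nes at 93.9% and 95.6% did not pass. In a bulk library fewer astrocytes and less astrocyte RNA per cell cannot be told apart.

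**Figure D1:**
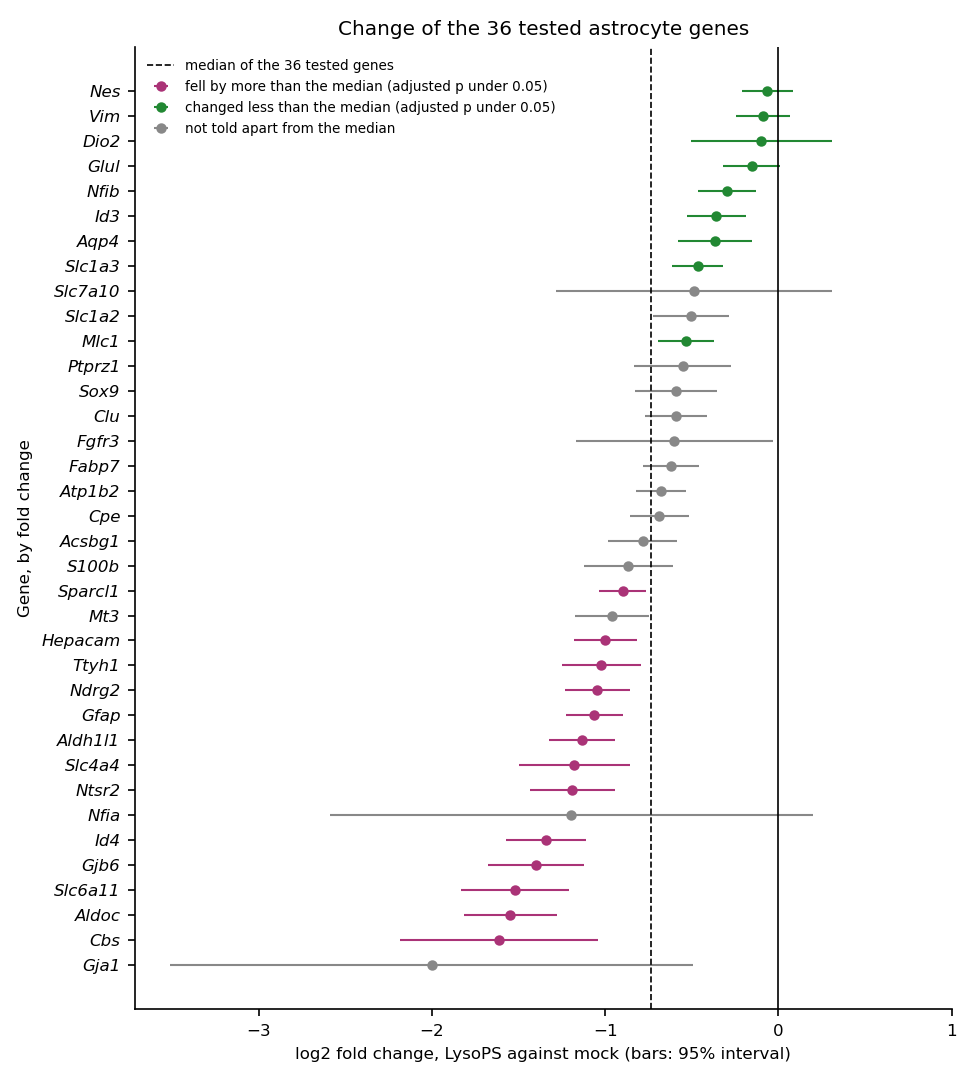
Log2 fold change of each of the 36 tested astrocyte genes, LysoPS against mock, with its 95% interval (bars) and the median of the 36 (dashed line, -0.74). All points lie below 0, and colours mark the 13 genes that fell by more than the median and the 9 that changed by less, by edgeR at an adjusted p under 0.05.

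Together the 37 genes took up 17394 and 16735 TPM in mock replicates 1 and 2, and 8713 and 9658 TPM in LysoPS replicates 1 and 2. The LysoPS sum was thus 0.538 of the mock sum. Gfap alone made up 27.8% and 28.3% of it in mock and 21.8% and 22.4% after LysoPS. Without Gfap the ratio of the sums was 0.582. Sums of TPM, here and below, were not TMM-scaled, and with limma on log2(TPM + 1) the median change of all genes was also negative. Levels in mock ranged from 4781 TPM (Gfap) to 0.254 TPM (Gpc5), and 33 genes stood at 10 TPM or more. The order of the levels hardly moved: the Spearman correlation between the mean TPM of mock and of LysoPS was 0.980 over the 37 genes, a description of genes that share the same libraries. The size of the fall did not follow the level (Spearman 0.129 between mean mock TPM and log2 fold change over the 36 tested genes).

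**Figure D2:**
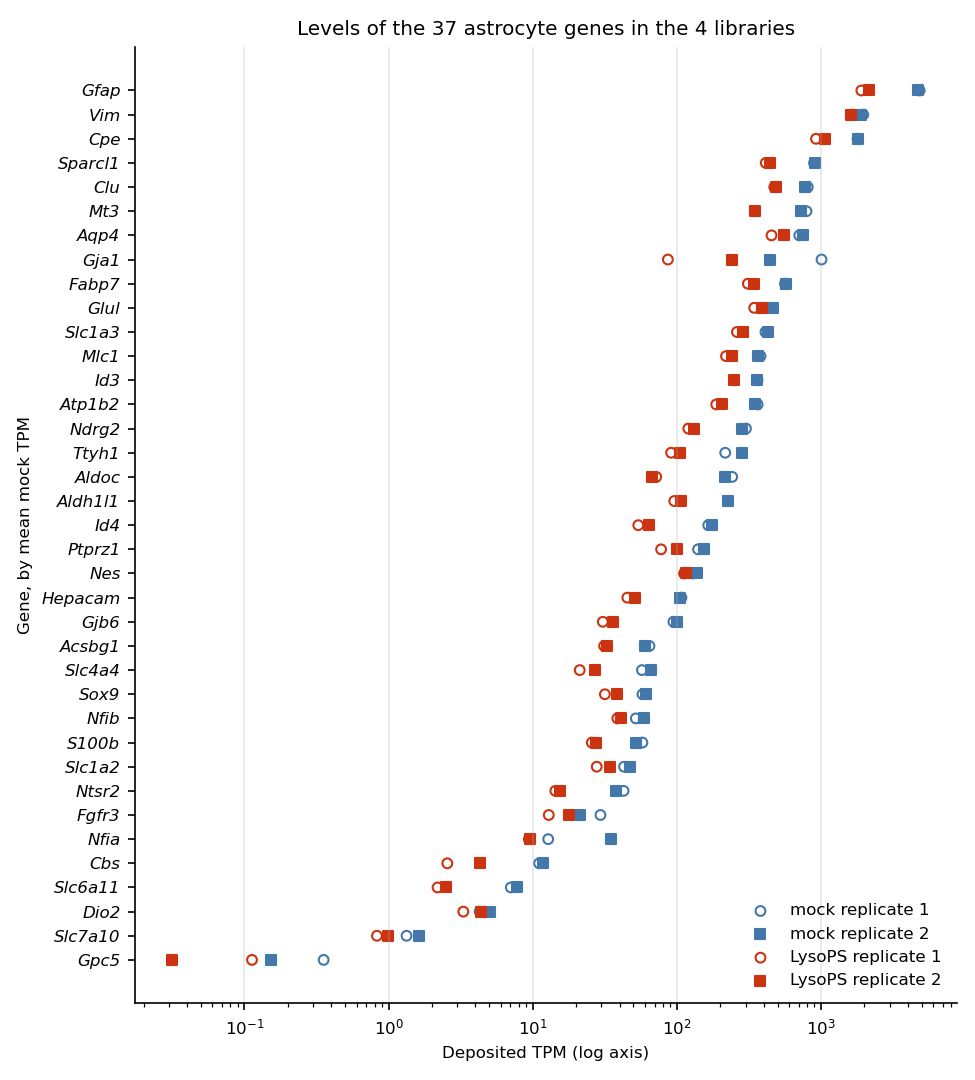
Deposited TPM (log axis) of the 37 astrocyte genes in each of the 4 libraries, ordered by the mean of the mock libraries. Gfap stands highest in all 4 libraries, Vim and Cpe follow, and the LysoPS libraries lie to the left of the mock libraries for nearly every gene.

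Of the 3 intermediate filament genes, Gfap and Vim had the highest levels of the list and Nes ranked 21 of 37 in mock. Gfap fell, and the other two did not pass. Gfap, the filament protein by which astrocytes are recognised, had 4829 and 4733 TPM in mock and 1903 and 2163 TPM after LysoPS. Vim, the vimentin gene that many cell types besides astrocytes express, had 1962 and 1903 TPM in mock and 1620.2 and 1609.7 TPM after LysoPS. In CPM, Gfap went from 5970.5 and 5683 to 2679 and 2900.1, a log2 fold change of -1.06 (SE 0.06, adjusted p = 0.000912). The groups are far apart, and the replicates of each are close. Vim went from 1909 and 1808 CPM to 1797 and 1694 CPM (-0.09, SE 0.06, adjusted p = 0.333), and its LysoPS values lie close below its mock values. Nes encodes nestin, a filament of neural progenitors and reactive astrocytes (368 and 379 CPM in mock, 362 and 353 CPM after LysoPS, -0.06, adjusted p = 0.453). Gfap had 2.46 and 2.49 times the TPM of Vim in the mock libraries and 1.17 and 1.34 times in the LysoPS libraries. Vim was called lower by limma on log2(TPM + 1) (-0.26, adjusted p = 0.0254), a scale on which the median of all genes stood at -0.14.

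Gfap (ENSMUSG00000020932) lies on the minus strand of chromosome 11 (102887336 to 102900912, GRCm38) and Vim (ENSMUSG00000026728) on the plus strand of chromosome 2 (13573927 to 13582826). Their promoters are shown because these 2 genes share a function and the top of the levels, and differ in the change. The lines hold the 250 bases before the RefSeq start (GRCm38.p6), with motif matches in capitals. They are chr11:102897201-102897450 on the minus strand for Gfap and chr2:13574061-13574310 on the plus strand for Vim. Both windows lie inside the gene models, which begin further upstream, so that the RefSeq start is not the start of the counted model.
Gfap: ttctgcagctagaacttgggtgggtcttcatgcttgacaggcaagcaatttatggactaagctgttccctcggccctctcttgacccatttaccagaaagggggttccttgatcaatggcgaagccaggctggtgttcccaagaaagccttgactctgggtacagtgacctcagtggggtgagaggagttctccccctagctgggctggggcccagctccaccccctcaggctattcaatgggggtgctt
Vim: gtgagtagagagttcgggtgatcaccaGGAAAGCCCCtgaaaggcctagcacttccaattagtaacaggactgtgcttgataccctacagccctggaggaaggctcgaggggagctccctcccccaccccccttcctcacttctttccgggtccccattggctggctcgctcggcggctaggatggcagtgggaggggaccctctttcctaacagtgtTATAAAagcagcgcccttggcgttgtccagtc
In Vim the capitals mark the letters TATAAA of a TATA box and, on the other strand, a form of the NF-kappaB motif (GGG, then 2 bases of any kind, then TTTCC). Gfap held none of the 6 motifs searched on both strands. Of the 37 genes, 30 had 35 promoters in the RefSeq table. The TATA letters were in 5 of the 35 (14.3%, against 12.4% of all 32851 promoters) and the NF-kappaB letters in 1 (2.86%, against 1.41%). The STAT motif TTCNNNGAA was in 4 (11.4%, against 7.02%), in Acsbg1, Aldoc, Ntsr2 and Slc1a3. The SOX motif ACAATG was in 1, that of Nfia (2.86%, against 10.7%), and the CRE motif TGACGTCA in 1 (2.86%, against 1.55%). The palindromic NFI motif (TGGC, then 5 bases of any kind, then GCCA) was in none, against 0.703% of all. These are counts of letters in a short window and say nothing of binding.

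Genes of transmitter uptake differed widely. Slc1a3 and Slc1a2 encode the glutamate transporters GLAST and GLT-1, of which GLAST is the earlier one in development. In TPM, Slc1a3 was 9.57 and 9.08 times as high as Slc1a2 in mock and 9.39 and 8.40 times after LysoPS, so that their ratio stayed within a narrow range. Slc1a3 fell from 816 and 822 CPM to 577 and 609 CPM (-0.47, SE 0.06, adjusted p = 0.00601), and Slc1a2 from 203 and 218 CPM to 139.6 and 158 CPM (-0.50, SE 0.09, adjusted p = 0.0146). Without mock replicate 2 Slc1a2 was not called (adjusted p = 0.0838). Glul, the glutamine synthetase that converts the glutamate taken up, had 589 and 576 CPM in mock and 503 and 544 CPM after LysoPS (-0.15, SE 0.06, adjusted p = 0.148). Its LysoPS libraries lay below its mock libraries, but by little. Slc6a11, the GABA transporter GAT3, was rare but fell to 34.8% of mock, from 13.6 and 14.2 CPM to 4.60 and 5.08 CPM (-1.52, SE 0.12, adjusted p = 0.00193). Slc7a10, a transporter of small neutral amino acids including D-serine, was at 1.23, 1.06, 0.657 and 0.961 CPM and did not pass (adjusted p = 0.308). It shares 237 identical bases with Lrp3 on the other strand, which held 5107 counts over the 4 libraries against 148 of Slc7a10, and whether its counts come from Slc7a10 was not tested.

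Of the 8 genes for water, ion and junction proteins 7 fell. Aqp4, the water channel of the astrocyte endfoot, was among the most abundant and fell least of the 7, from 1682 and 1743 CPM to 1230.0 and 1426 CPM (-0.37, SE 0.08, adjusted p = 0.0337). The call was lost without mock replicate 1 (adjusted p = 0.107) and without mock replicate 2 (adjusted p = 0.142). Mlc1 and Hepacam encode membrane proteins that form a complex at astrocyte junctions. Mlc1 fell from 494 and 465 CPM to 325 and 338 CPM (-0.53), and Hepacam from 161 and 154 CPM to 76.8 and 80.7 CPM (adjusted p = 0.00140). Both fell. The bicarbonate cotransporter Slc4a4 went from 201 and 224 CPM to 83.9 and 104 CPM (-1.18, adjusted p = 0.00399), and the sodium pump subunit Atp1b2 from 506 and 489 CPM to 311 and 311 CPM (-0.68, adjusted p = 0.00216). Ttyh1, a chloride channel family gene, fell from 287 and 306 CPM to 136 and 156 CPM (-1.02). The transcript length implied by its counts and FPKM varied by 1.22 times between libraries.

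The connexins were the least uniform pair. Gjb6, which encodes connexin 30, was tight within groups, with 90.2 and 91.5 CPM in mock and 31.3 and 37.5 CPM after LysoPS (-1.40, SE 0.11, adjusted p = 0.00168). Gja1, which encodes connexin 43, stood at 1450.1 and 619 CPM in mock and at 141 and 375 CPM after LysoPS. Its groups did not overlap, but the mock libraries differed from each other by 2.34 times and the LysoPS libraries by 2.66 times. The log2 fold change of -2.00 (SE 0.59) was the most negative of the list and did not pass (adjusted p = 0.0652). It was -1.26 without mock replicate 1, and it passed without mock replicate 2 (-2.49, adjusted p = 0.0337), without LysoPS replicate 2 (-2.87, adjusted p = 0.0218) and without the filter on low counts (adjusted p = 0.0167). Its implied transcript length was stable within 1.01 times, and no other model with at least 10 counts overlapped it.

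Of 5 transcription regulators 4 fell, and Nfia did not pass. ID proteins hold back basic helix-loop-helix factors. Id4 fell from 128 and 131 CPM to 47.8 and 54.4 CPM (-1.34, SE 0.09, adjusted p = 0.00121), and Id3 from 210.1 and 201 CPM to 164 and 156 CPM (-0.36, SE 0.07, adjusted p = 0.0185). Id3 therefore had 2.20 and 2.07 times the TPM of Id4 in mock and 4.61 and 3.87 times after LysoPS. The groups do not overlap in this ratio. Sox9, a factor of gliogenesis, fell from 112 and 115 CPM to 69.9 and 80.8 CPM (-0.59, adjusted p = 0.0115; 0.0596 without mock replicate 2). The nuclear factor I genes drive the onset of astrocyte gene expression. Nfib fell from 205 and 214 CPM to 166 and 174 CPM (-0.30, adjusted p = 0.0293). For Nfia, 1 library decided the value: it had 126 CPM in mock replicate 2 against 37 in mock replicate 1 and 34.7 and 36.8 after LysoPS. The log2 fold change of Nfia was -1.19 with all libraries (adjusted p = 0.176), -0.05 without mock replicate 2 (adjusted p = 0.851) and -1.82 without mock replicate 1 (adjusted p = 0.00123). Its implied length varied by 1.29 times, and an antisense model, E130114P18Rik, held counts equal to 27.5% of those of Nfia.

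Id3 and Nfib were not called without mock replicate 1 or mock replicate 2, and Nfib also not without LysoPS replicate 1. Ptprz1, a receptor phosphatase of astrocytes and glial progenitors, fell from 339 and 365 CPM to 216 and 263 CPM (-0.55, adjusted p = 0.0219), and lost the call in the absence of either mock library. Ntsr2, a neurotensin receptor, fell from 32.7 and 31.0 CPM to 13.4 and 14.5 CPM (-1.19, SE 0.10, adjusted p = 0.00195). Fgfr3, a fibroblast growth factor receptor of astrocyte precursors, stood at 47.3 and 31.8 CPM in mock and 22.8 and 29.2 CPM after LysoPS (-0.60, adjusted p = 0.114). Mock replicate 2 and LysoPS replicate 2 nearly met. Without mock replicate 1 the log2 fold change of Fgfr3 was -0.29 (adjusted p = 0.372), and without mock replicate 2 it was -0.86 (adjusted p = 0.0398).

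Of 9 genes of metabolism and of lipid or metal binding, 8 fell. Aldoc, the brain form of the glycolytic enzyme aldolase, went from 274 and 229.9 CPM to 88.8 and 83.4 CPM (-1.55, SE 0.11, adjusted p = 0.00125). Cbs, which makes cystathionine from homocysteine, fell from 11.8 in both mock libraries to 3.02 and 4.67 CPM (-1.61, SE 0.22, adjusted p = 0.00820). These 2 had the most negative values among the genes that passed. Aldh1l1, a folate enzyme much used to mark astrocytes, fell from 323 and 307 CPM to 137 and 149.9 CPM (-1.13, SE 0.07, adjusted p = 0.00111). Ndrg2 fell to 48.4% of mock (-1.05), the zinc-binding metallothionein Mt3 to 51.3% (-0.96) and the calcium-binding S100b to 54.8% (-0.87). The model of S100b overlaps Dip2a on the other strand, which held 7311 counts against 4339. Acsbg1, an acyl-CoA synthetase, fell to 58.0% (-0.78) and Fabp7, the fatty acid-binding protein of radial glia, to 65.1% (-0.62). Dio2, the deiodinase that activates thyroid hormone, did not pass, with 11.7 and 13.3 CPM in mock and 10.3 and 13.1 CPM after LysoPS (-0.10, adjusted p = 0.686). It was the 1 gene whose groups overlapped, and its log2 fold change was 0.06 without LysoPS replicate 1.

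The 3 genes for secreted proteins fell with little spread between replicates. Cpe, carboxypeptidase E, went from 1765 and 1736 CPM to 1035 and 1139 CPM (-0.69). Sparcl1, the synapse-inducing protein hevin, went from 1139 and 1121 CPM to 599 and 613 CPM (-0.90), and the extracellular chaperone clusterin (Clu) from 625 and 572 CPM to 406 and 387 CPM (-0.59). The highest adjusted p of the 3 was 0.00535, that of Clu.

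**Figure D3:**
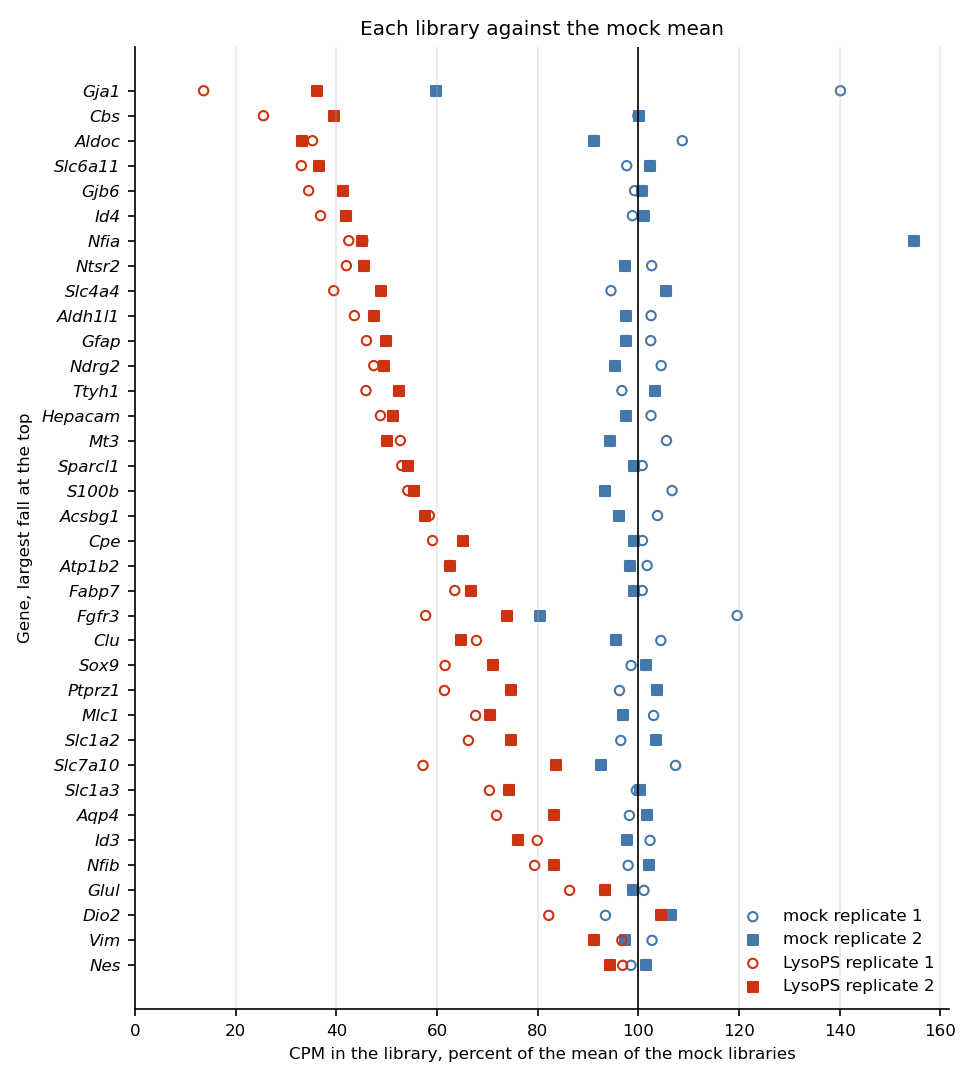
CPM of the 36 tested astrocyte genes in each library as percent of the mean of the mock libraries, largest fall at the top. Replicates lie close together for most genes; Gja1, Nfia and Fgfr3 have mock libraries far apart, and the mock and LysoPS libraries of Dio2 overlap.

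To see which genes moved by another amount than the list as a whole, each was also compared with the list's own median of -0.74, in the same edgeR fit with this value in place of 0. Of the 36 genes 13 fell by more than the median and 9 changed by less at an adjusted p under 0.05, while 14 could not be told apart from it. The balance of the 2 sides was not stable: 5 fell by more and 10 changed by less without mock replicate 2, 8 and 14 without LysoPS replicate 1, and 7 and 16 with the median of the narrower astrocyte genes (described next) in its place. The list's genes lie on both sides of their own median by construction, and only 10.5% of all tested genes lay at or below it. Over all tested genes 1.99% fell by more than the list's median, and 64% fell by less or rose. These shares largely follow from where the median lies, and are no background for the 13 and 9 genes. With most of all genes called in this comparison, the adjustment over all genes was also mild for the list. The SD of the log2 fold changes between the 36 genes was 0.47, and the median SE of a gene was 0.08. With a library left out, each fit used the list's median in that fit, between -0.84 and -0.70. Of the 22 genes called, 9 were called on the same side in each of the 10 alternative fits run for this comparison. Aldoc (0.81 further below 0 than the median, adjusted p = 0.00155), Slc6a11, Gjb6 and Id4 fell by more. Nes (0.67 above the median, adjusted p = 0.000504), Vim, Glul, Nfib and Id3 changed by less. Gfap fell by more than the median (adjusted p = 0.00718), but not without mock replicate 2 (adjusted p = 0.0616) or against the median of the narrower genes (adjusted p = 0.0585). Without mock replicate 1 the count was 14, in place of 22.

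The 37 genes were also divided into 19 whose expression in the brain is narrower, such as Gfap, Aqp4 and Gjb6, and 18 that other brain cells are known to express as well, such as Vim, Clu and Sox9. Of the narrower genes 14 of 18 tested fell, with a median of -0.89, and of the shared genes 14 of 18, with a median of -0.65. The summed TPM of the narrower genes went from 8387 and 7759.6 to 3399 and 4023, a ratio of 0.460. That of the shared genes went from 9007 and 8975 to 5314 and 5635, a ratio of 0.609. The shared genes that changed by less than the list's median were Vim, Nes, Glul, Id3 and Nfib. The narrower ones were Aqp4, Slc1a3, Mlc1 and Dio2. The calls of these 4 narrower genes were each lost in at least 1 alternative fit, and those of the 5 shared genes in none. In the other direction, 5 shared genes (Aldoc, Id4, Ndrg2, Ttyh1 and Sparcl1) and 8 narrower ones fell by more than the median. Among these, the calls of Aldoc and Id4 (shared) and of Gjb6 and Slc6a11 (narrower) held in every alternative fit. With any 1 library left out, Aqp4, Slc1a3, Mlc1 and Dio2 stayed above the list's median in that fit, which was between -0.84 and -0.70. Their distances from it were 0.31 to 0.53 for Aqp4, 0.23 to 0.38 for Slc1a3, 0.21 to 0.29 for Mlc1 and 0.50 to 0.86 for Dio2.

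Further genes known from astrocytes were read from a second list of 32, of which 30 were tested. Here 17 fell and 3 rose, with a median of -0.54, and 10 fell without mock replicate 1. Among those that fell, named after their values were seen, were the potassium channel gene Kcnj10 (-0.50, adjusted p = 0.0130), the angiotensinogen gene Agt (-1.53, adjusted p = 0.000912) and Fam107a (-2.08, adjusted p = 0.00193). The 4 genes with the highest mean TPM over all libraries included the 3 that rose. Slc13a3 is among them only through its LysoPS level, with a mean of 18.9 TPM in mock and 612 TPM after LysoPS. Tnc was also not among the 4 highest in mock, with a mean of 131 TPM in mock and 195 TPM after LysoPS. Slc13a3, a dicarboxylate transporter, rose from 33.6 and 15.3 CPM to 1059 and 1017 CPM (5.42, adjusted p = 0.00167). The matrix protein gene Tnc rose from 426 and 428 CPM to 713 and 722 CPM (0.75, adjusted p = 0.00141). Pla2g7, a phospholipase that degrades platelet-activating factor, rose slightly (0.22, adjusted p = 0.0465), and the mitochondrial glutamate carrier Slc25a18 did not pass (0.02, adjusted p = 0.872).

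Genes known to rise in reactive astrocytes were read as 3 lists, of which the pan-reactive one was higher as a group. Of 11 pan-reactive genes (Gfap and Vim, which are often counted among them, left out) 9 rose and none fell, with a median of 1.495. Among all tested genes 12.8% rose and 12.6% fell. Gfap fell and Vim did not pass, so that the absence of a fall holds only with Gfap left out. The siderophore-binding protein Lcn2 rose from 11.3 and 4.14 CPM to 614 and 351 CPM (5.99, SE 0.59, adjusted p = 0.00329). The protease inhibitor genes Timp1 (1.495, adjusted p = 0.00167) and Serpina3n (0.86, adjusted p = 0.00287) and the sphingosine-1-phosphate receptor gene S1pr3 (1.30, adjusted p = 0.000666) rose as well. Of 11 genes of the A1 type of reactive astrocytes 5 rose and none fell (median 0.36): H2-D1, Gbp2, Psmb8, Iigp1 and Ggta1. Of 10 tested genes of the A2 type 4 rose (Ptx3, Ptgs2, Tgm1 and Clcf1) and Sphk1 fell (median 0.01), with 3 falling without LysoPS replicate 2. Of the most abundant genes of these lists, Serping1, Srgn, S100a10, Tm4sf1 and Cd109 did not pass, with values from -0.23 (Serping1) to 0.19 (Tm4sf1). H2-D1, Gbp2 and Ptx3 were named for their mean TPM over all libraries. The other A1 and A2 genes that were called were picked for naming once their values were known. Lcn2 and Ptx3 were among the most abundant of their lists only through their LysoPS levels. Mean TPM went from 17.9 in mock to 1014 after LysoPS for Lcn2, and from 20.1 to 151 for Ptx3. Macrophages and other cells express many of these genes too, and the cells that the transcripts came from were not identified.

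**Figure D4:**
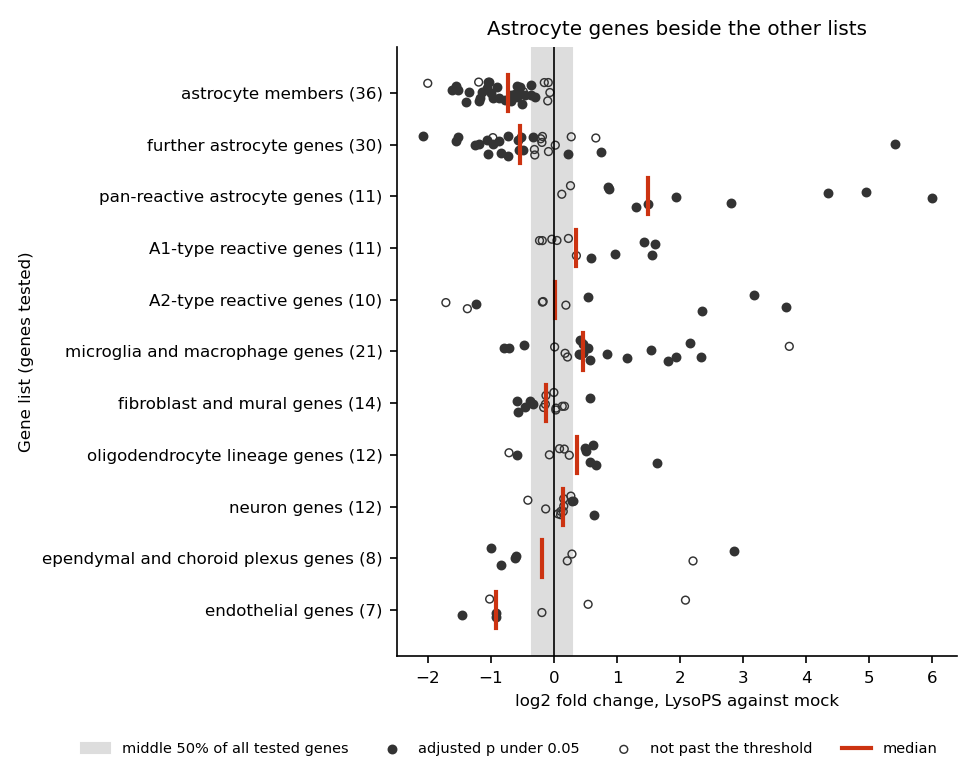
Log2 fold change of the tested genes of each list (filled points passed at an adjusted p under 0.05, open points did not), with the median of each list in red and the middle 50% of all 19057 tested genes as a grey band. The 36 astrocyte genes lie below 0, and the pan-reactive genes lie above it. Gfap and Vim are shown among the astrocyte genes and not in the pan-reactive list.

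Markers of other cells were read in the same libraries, in which 12.6% of all tested genes fell and 12.8% rose. Of 21 models for 20 microglia and macrophage genes 13 rose and 3 fell (median 0.46), and 7 rose without mock replicate 2. Their summed TPM went from 10757 and 10215 to 23012 and 21046, of which Lyz2 held 4761 and 4515 in mock and 14995 and 13664 after LysoPS. The lysozyme gene Lyz2 and the Fc receptor chain Fcer1g rose by 1.80 and 1.93, the complement gene C1qb rose by 0.54, and C1qc (0.21, adjusted p = 0.128) did not pass. Fcer1g was named through its LysoPS level, with a mean of 459 TPM in mock and 1549 TPM after LysoPS. Of 14 fibroblast and mural genes 5 fell and 1 rose (median -0.13), or 2 fell in the absence of either mock library, and their summed TPM was 7649 and 7998 in mock and 5660 and 6203 after LysoPS. The matrix gene Fn1 fell by 0.59 on the log2 scale. Dcn, Fbln1, Lum and Col6a3 fell and Postn rose, named after their values were seen, while the collagen genes Col1a1, Col1a2 and Col3a1 had values of -0.14, -0.16 and 0.03 and did not pass. Of 12 tested oligodendrocyte lineage genes 6 rose and 1, Cnp, fell (median 0.37), and 1 rose in the absence of either mock library. Of 12 neuron genes 2 rose, Elavl3 and Stmn2 (median 0.15), a share of 16.7% that is near the 12.8% of all tested genes. Of 8 ependymal and choroid plexus genes 4 fell (Foxj1, Ccdc153, Rsph1 and Tmem212) and Ttr rose by 2.85 (median -0.20), or 2 fell and 2 rose without mock replicate 2. Of 7 tested endothelial genes 3 fell, Kdr, Cdh5 and Vwf (median -0.92), or 2 in the absence of either mock library. Genes of these 4 lists were named where few were called, with their values known. No list had a model at 0 counts in all libraries. The part of these shifts in the fall of the astrocyte genes was not tested.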

How the data were processed

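RNA was measured in 4 libraries (2 mock, 2 LysoPS), grouped by the treatment in their labels. Trimmomatic 0.36, FastQC 0.11.2, StringTie and HISAT2 are the programs listed, with the build GRCm38, per the submitters' processing notes. The authors deposited, per the file headers, a read count, an FPKM value and a TPM value for each gene model. How strand was handled is not given in the sources. Counts were tested with edgeR 4.0.16 (TMM, filterByExpr, quasi-likelihood test, 2 residual degrees of freedom, Benjamini-Hochberg over all tested genes, adjusted p under 0.05), and FPKM served only for implied transcript lengths. The same fit with shifted offsets set each gene against the median of the list. The rule for names covers all 37 genes and, of each other list, up to 4 genes with the highest mean TPM. Genes outside it are named where few were called or, for the further astrocyte genes, to show some that fell. The genes and lists were chosen with earlier results of these data known. The pairs compared, the motifs and the promoters shown were chosen after values or matches were seen. Gene overlaps were read from the coordinates deposited with the counts, which were the same in GENCODE M21 for 32 of the 37 genes. Near-identical stretches were searched for in the transcripts of GENCODE M21. Promoters came from RefSeq, and 7 of the 37 genes had none there. The fits were tested on simulated data: large changes were mostly recovered, small ones mostly missed, and the share of false calls was above the adjusted p threshold, more so when each gene kept its own dispersion. A first simulation with gene-wise dispersions had a higher false share still. Alternatives were other scalings, filters and tools (DESeq2 1.42.0, limma 3.58.1), a replicate block, and each library left out.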

Additional observations from a re-analysis of the deposited data

How the results depend on the processing

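Of the 28 astrocyte genes that fell, 22 were called in every one of 12 alternative fits, and Aqp4, Id3, Nfib, Ptprz1, Slc1a2 and Sox9 were lost in at least 1. The number that fell was 24 to 29 with 1 library left out and 28 to 30 otherwise. Of the 8 not called, Fgfr3, Gja1, Glul, Nfia and Vim were called in at least 1 alternative. Their median log2 fold change was -0.90 with limma on log2(TPM + 1), -0.83 with library totals in place of TMM (an alternative added after the data were seen), and between -0.84 (without mock replicate 2) and -0.70 (without mock replicate 1) with a library left out. Those 2 scalings also moved the median of all genes, to -0.14 and -0.11. Over all genes 4854 were called, and between 2165 (without mock replicate 2) and 5356 (without LysoPS replicate 2) with a library left out; 2223 were called without mock replicate 1. Where a library is left out, the lone sample of its group is assumed to vary like the other group. Against the median of the list, 22 genes were called, and between 14 (without mock replicate 1) and 23 (without LysoPS replicate 2) with a library left out. The value of Nfia against the list's median in each fit changed sign with the library left out, from -1.12 (without mock replicate 1) to 0.79 (without mock replicate 2). The cause of these shifts was not tested. With the replicate number as a block, 28 genes of the list were lower, 25 differed from its median and 5433 of all genes were called. The labels give libraries of the same number nothing else in common. Their deviations correlated at 0.0775 over all genes and -0.415 over the astrocyte genes. Single genes differed in this. Cx3cr1 had 132 and 13.4 CPM in mock replicates 1 and 2, and 176 and 19.5 CPM in LysoPS replicates 1 and 2. Gja1 had 1450 and 619 CPM in mock replicates 1 and 2, and 141 and 375 CPM in LysoPS replicates 1 and 2. Whether libraries of the same number were paired was not tested. With 2 libraries a group, genes at low counts such as Slc7a10 and Gpc5 allow no firm statement.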
